A study of Mus musculus with 32 samples.

Results

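The transcripts of E2F factors and of the pocket proteins that hold them were followed through 8 fractions of mouse bone marrow at 2 ages. The genes were chosen by symbol and were E2f1, E2f2, E2f3, E2f4, E2f6, E2f7, E2f8, Rb1, Rbl1 and Rbl2. All 10 were found among the 24421 genes of the count table, and all 10 were among the 14154 genes that passed the filter on low counts.

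E2F factors bind the promoters of genes for DNA replication and cell cycle entry, most of them as dimers with a DP partner. E2f1, E2f2 and E2f3 are known as activators, E2f4 works largely as a repressor together with pocket proteins, E2f6 represses with polycomb complexes and without pocket proteins, and E2f7 and E2f8 are atypical repressors that need no DP partner. The pocket proteins Rb1 (pRB), Rbl1 (p107) and Rbl2 (p130) bind E2F factors until cyclin-dependent kinases phosphorylate them, with p130 known as the form of resting cells and p107 as a form of cycling cells.

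Cells came from female C57BL/6 mice, 10 weeks old in the Young groups and 20 months old in the Aged groups. The labels name no altered genotype and no treatment. All cells lacked lineage markers. Hematopoietic stem cells (HSCs) were c-kit+ Sca-1+ CD34- CD150+ CD48- Flt3-, and multipotent progenitors (MPPs) were c-kit+ Sca-1+ CD34+, divided into MPP1 (CD150+ CD48- Flt3-), MPP2 (CD150+ CD48+ Flt3-), MPP3 (CD150- CD48+ Flt3-) and MPP4 (CD150- CD48+ Flt3+). Granulocyte-macrophage progenitors (GMPs) were c-kit+ Sca-1- FcgR+ CD34+, megakaryocyte-erythrocyte progenitors (MEPs) were c-kit+ Sca-1- FcgR- CD34-, and common lymphoid progenitors (CLPs) were low for c-kit and Sca-1 and positive for the IL-7 receptor. Each of the 16 groups had 2 libraries, 32 in all. With 2 libraries per age, values of the ages can easily lie apart without any age difference. The share of all genes without overlap was not counted, so a lack of overlap below is a description and adds little to a call. The study describes marrow that was pooled and then sorted in duplicate, and elsewhere biological duplicates, so the errors and p-values below may cover sorting and library preparation but not the variation between mice. These are bulk samples, in which fewer cells of a type and less RNA per cell cannot be told apart.

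Library totals ran from 11237384 to 17723245 counts. Some genes of the sorting antigens moved with the gates. The log2 difference was 5.34 for Fcgr3 from MPP3 to GMPs and 4.98 for Il7r from MPP4 to CLPs. It was -3.41 for Slamf1 (CD150) from MPP2 to MPP3, each with an adjusted p under 0.01. Of 8 such genes, some also differed between the ages inside a gate. In MEPs 5 were called lower in Aged cells, against 20.8% of all genes, with Flt3 the lowest (-7.80). In Aged MPP1, sorted as CD48-, Cd48 was called higher (1.02) and Kit lower (-0.44). Cd48 was also called higher in Aged MPP2 (0.69), MPP3 (0.70) and MPP4 (0.74), sorted as CD48+, and lower in Aged GMPs (-0.37). In Aged CLPs 2 were called higher and 1 lower, with Ly6a at 2.60 and Fcgr3 at -2.99. The part of these differences in the values below was not tested. Transcripts of other cell types differed between the ages in several fractions. Summed over 4 basophil and mast cell markers the level was 1683 to 1733 CPM (counts of a gene scaled to a fixed library total) in Young and 7.64 to 12.0 in Aged CLPs, and all 4 were called lower. Summed over 5 macrophage markers it was 129 to 144 and 2.60 to 3.24 CPM there, with all 5 called lower. Summed over 6 erythroid markers it was 171 to 198 CPM in Young and 2.05 to 9.31 in Aged GMPs, with 5 called lower, and summed over 6 B lineage markers it was 142 to 149 and 0.430 to 1.22 CPM in MEPs, with 5 called lower. Summed over 5 neutrophil markers it was 54.5 to 58.7 CPM in Young and 271 to 299.8 in Aged HSCs, with all 5 called higher, and 1071 to 1076 and 173 to 235 CPM in MPP3, with all 5 called lower. In both Aged libraries Prss34 was at 0 in CLPs, Epor in GMPs and Cd79a, Ebf1 and Pax5 in MEPs. Summed over 5 T and NK cell markers the level was 26.5 to 29.5 CPM in Young and 80.8 to 91.5 in Aged HSCs, with 2 called higher. Of these markers Cd3e and Ncr1 were at 0 in both Aged HSC libraries. In Young GMPs the same sum was 686 to 736 CPM with Cd3e, Cd3g, Ncr1 and Klrb1c at 0 in both libraries. It was thus carried by Nkg7 there and need not stand for T and NK cells. The part of the transcripts of all these lists in the values below was not tested.

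In GRCm38 (mm10) E2f1 lies at chr2:154559407-154569892 on the minus strand, E2f2 at chr4:136172394-136196057 on the plus strand, E2f3 at chr13:29906575-29986063 on the minus strand, E2f4 at chr8:105297663-105305370 on the plus strand and E2f6 at chr12:16810963-16839742 on the plus strand. E2f7 lies at chr10:110745439-110787384 on the plus strand, E2f8 at chr7:48866429-48881596 on the minus strand, Rb1 at chr14:73183673-73325822 on the minus strand, Rbl1 at chr2:157145893-157204534 on the minus strand and Rbl2 at chr8:91070057-91123844 on the plus strand. All 10 are protein coding, and their exons in GENCODE M21 cover 2452 bases in E2f4 and 9009 in E2f7. The study names annotation from iGenomes for its reads, so the exons counted may differ from these, and values per kilobase below rest on the GENCODE lengths. Exons of Rb1 share 488 bases with Rcbtb2 and 408 with Lpar6, exons of Rbl2 share 693 with Aktip and 892 with Gm45464, exons of E2f8 share 610 with Gm2788 and those of E2f7 share 86 with 1700020G17Rik, all on the other strand. No use of strand was stated for the counts, so reads from these stretches could have been given to either gene.

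Several of these genes are themselves known targets of E2F factors, and stretches of 5 promoters are printed to show the letters near the start. They are of some genes whose level was lowest in HSCs (E2f2, E2f3, E2f8 and Rbl1) and of one whose level was highest there (Rbl2). E2f1, E2f4, E2f7 and Rb1 were also lowest in HSCs over both ages and are not printed. The printed stretches are from RefSeq windows on GRCm38.p6, 5′ to 3′ on the gene's strand, from base -120 to base 30 counted from the start of transcription. Capitals mark matches that lie wholly in the printed stretch, on either strand, to TTTNNCGC or TTTNNCGG, which resemble an E2F site, and to TTTGAA, which resembles the CHR element of cell cycle genes. The motifs were chosen after the sequences and values were seen. The same stretch of E2f7 held no match, so the printed ones show no contrast between genes low and high in HSCs.
E2f2 (chr4:136172154-136172303, plus strand): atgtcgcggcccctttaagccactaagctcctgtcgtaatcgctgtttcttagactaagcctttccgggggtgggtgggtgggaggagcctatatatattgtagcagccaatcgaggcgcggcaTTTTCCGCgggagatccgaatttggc
E2f3 (chr13:29986034-29986183, minus strand): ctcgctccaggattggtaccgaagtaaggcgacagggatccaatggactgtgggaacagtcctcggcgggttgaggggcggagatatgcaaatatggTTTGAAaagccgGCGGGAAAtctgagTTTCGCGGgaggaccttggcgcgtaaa
E2f8 (chr7:48881567-48881716, minus strand): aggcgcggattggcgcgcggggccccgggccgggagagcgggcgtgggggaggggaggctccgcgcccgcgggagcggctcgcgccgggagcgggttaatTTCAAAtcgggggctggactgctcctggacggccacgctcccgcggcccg
Rbl1 (chr2:157204505-157204654, minus strand): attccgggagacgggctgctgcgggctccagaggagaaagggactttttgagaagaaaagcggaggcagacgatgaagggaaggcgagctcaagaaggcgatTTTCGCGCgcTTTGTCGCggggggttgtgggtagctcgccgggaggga
Rbl2 (chr8:91069937-91070086, plus strand): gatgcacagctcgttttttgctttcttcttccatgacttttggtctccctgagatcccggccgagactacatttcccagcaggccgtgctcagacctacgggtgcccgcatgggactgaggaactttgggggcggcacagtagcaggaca

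In the Rbl1 window TTTNNCGC stood from base -18 to -11 and again from -8 to -1. In E2f3 it stood on the other strand from -11 to -4, with TTTNNCGG from 4 to 11 and TTTGAA from -23 to -18. In E2f2 TTTNNCGC stood from 5 to 12, TTTNNCGG stood from 25 to 32, which starts in the printed stretch and runs past its end and so is left in lower case, and TTTNNCGC stood again from 40 to 47. E2f8 held TTTGAA on the other strand from -20 to -15. The printed Rbl2 stretch held none of the 3 motifs, and its full window held TTTGAA from -201 to -196 on the other strand. The E2f7 window held TTTNNCGC on the other strand from -198 to -191 and TTTNNCGG from 32 to 39, and the E2f6 window held none. E2f2 and E2f3 each had another window, which held TTTGAA from -31 to -26 in E2f2 and none of the motifs in E2f3. No 2 of these matches overlapped. Of 32851 such windows of 300 bases in mouse, 5.17% held TTTNNCGC, 5.79% held TTTNNCGG, 10.5% held either, and 17.9% held TTTGAA. The RefSeq window of E2f1 starts inside the gene as annotated in GENCODE and was not read as its promoter. E2f4 and Rb1 were not in the table, so 8 of the 10 genes matched.

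The activators were at their lowest in HSCs. E2f1 was at 31.3 and 34.9 CPM in the libraries of Young HSCs, 67.9 and 69.2 in Young MPP1 and 135 and 121 in Young GMPs. In order of level over both ages it ran GMP, MPP2, CLP, MEP, MPP4, MPP3, MPP1 and HSC, in which the first and the last of the 7 neighbouring pairs were the only ones that differed at an adjusted p under 0.01 (called, in what follows). E2f2 spanned a wider range, from 4.29 and 4.30 CPM in Young HSCs and 16.6 and 24.9 in Young GMPs to 67.3 and 84.2 in Young MEPs and 185 and 190.4 in Young CLPs. CLPs exceeded MEPs (log2 difference 1.12 ± 0.10 (SE), adjusted p 8.62e-10), MEPs exceeded MPP4 and GMPs exceeded HSCs, while no pair of neighbours in the run MPP4, MPP2, MPP3, MPP1 and GMP was called. E2f3 ranged from 14.5 to 48.3 CPM over the 32 libraries, and its order ran MEP, CLP, GMP, MPP2, MPP3, MPP1, MPP4 and HSC with no neighbouring pair called. Its libraries lay at 18.2 and 18.2 CPM in Young HSCs and 48.3 and 26.6 in Young MEPs.

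Per kilobase of exon E2f4 had the highest mean of the 10 genes in all 16 groups. Its mean on that scale was 45.3 CPM in Young HSCs and 190.0 in Young MEPs, against 10.5 and 29.1 for E2f1 on the same scale. MEPs exceeded CLPs, the next fraction (log2 difference 1.48 ± 0.05 (SE), adjusted p 1.19e-17). The rest of its order was CLP, GMP, MPP4, MPP2, MPP3, MPP1 and HSC, in which MPP4 and MPP2, and MPP2 and MPP3, were not called apart. E2f6 and E2f3 varied least among the E2F genes, by 2.19-fold and 2.20-fold between their highest and lowest fractions. For E2f6 these were MEPs and CLPs. CLPs were at 59.1 and 60.0 CPM in Young mice and GMPs, the next fraction up, at 100.2 and 95.0 (log2 difference 0.57 ± 0.06 (SE), adjusted p 7.14e-09). Between those ends MPP1, MPP2, MPP4, HSC, MPP3 and GMP formed a run without a called pair of neighbours.

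The atypical repressors E2f7 and E2f8 were low in Young HSCs, E2f7 at 5.99 and 4.69 CPM and E2f8 at 4.94 and 2.41 CPM, where the lower E2f8 library held 37 counts of the gene. They parted in the erythroid direction. In Young MEPs E2f8 was at 136 and 142 CPM, its highest fraction, and E2f7 at 13.5 and 11.5 CPM, its second lowest. Per kilobase of exon E2f7 was 0.733 and 1.18 of E2f8 in the libraries of Young HSCs, 0.375 and 0.374 in Young MPP2 and 0.0601 and 0.0490 in Young MEPs. E2f8 had the widest range of the 10 genes, 25.2-fold between MEPs and HSCs over both ages, and E2f2 followed at 21.7-fold. For E2f7 the order was MPP2, CLP, MPP1, MPP3, MPP4, GMP, MEP and HSC, where MPP2 and CLP, MPP1 and MPP3, and MPP3 and MPP4 were not called apart. For E2f8 it was MEP, CLP, GMP, MPP2, MPP4, MPP3, MPP1 and HSC, where CLP and GMP, GMP and MPP2, and MPP4 and MPP3 were not called apart.

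**Figure D1:**
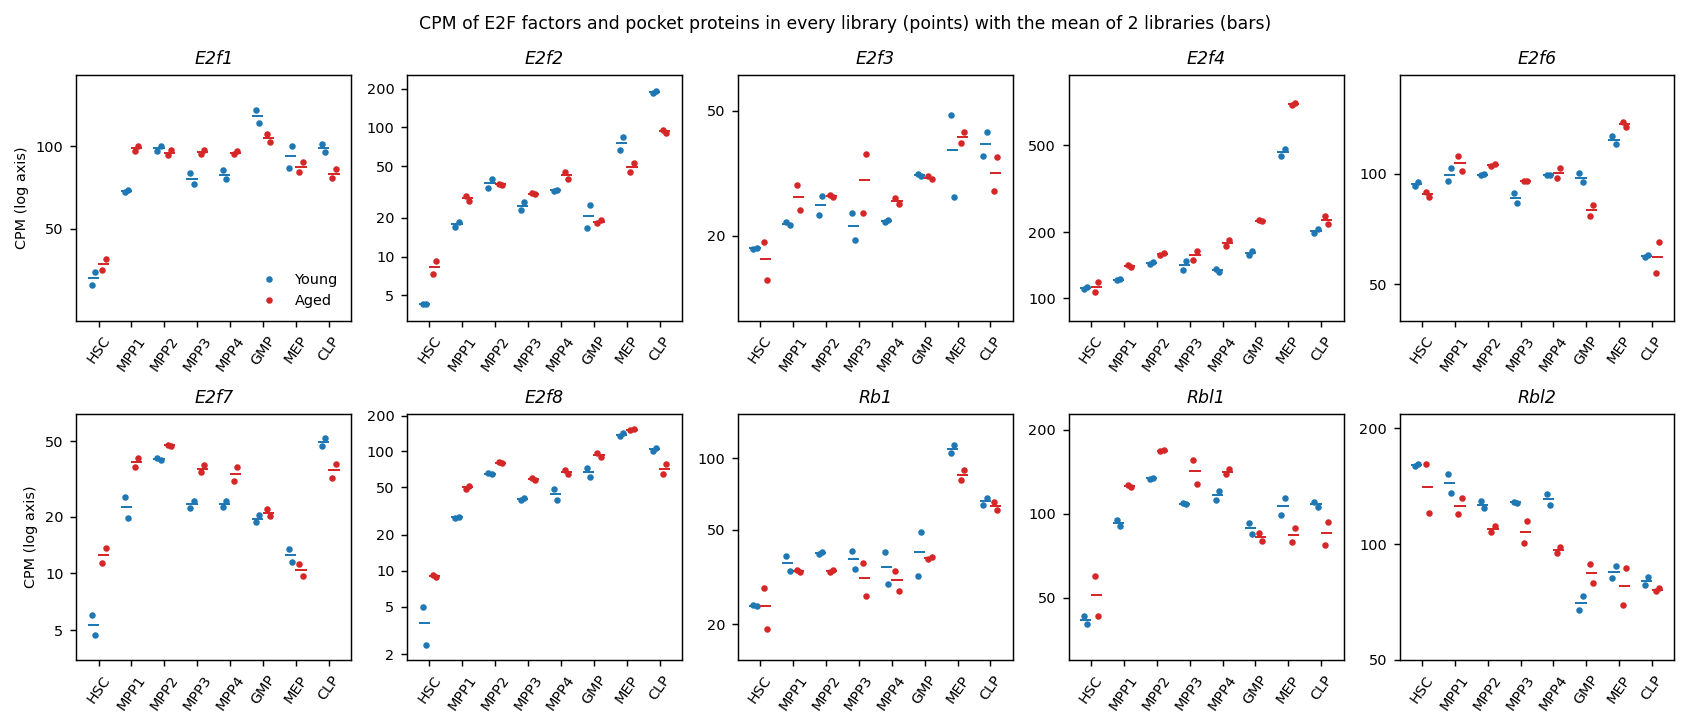
CPM (vertical log axis, a separate range for each gene) of the 10 genes in the 8 fractions, with a point for each library, a short bar for the mean of 2 libraries, Young in blue and Aged in red. E2f2 and E2f8 are lowest in HSCs at both ages, while E2f7 is lowest in HSCs in Young and in MEPs in Aged cells. E2f4 and Rb1 peak in MEPs, and Rbl2 alone is highest in HSCs.

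The pocket proteins did not share one pattern. Rbl2 was highest in HSCs, with 159.8 and 161 CPM in Young libraries, and stood at 135 and 126 in Young MPP4 and 67.4 and 73.5 in Young GMPs. Its order was HSC, MPP1, MPP2, MPP3, MPP4, MEP, CLP and GMP, in which MPP4 and MEP were the only neighbours called apart (log2 difference 0.47 ± 0.08 (SE), adjusted p 1.56e-05). Rbl1 ran from 42.9 and 40.3 CPM in Young HSCs to 134 and 134 in Young MPP2, and in the order MPP2, MPP4, MPP3, MPP1, CLP, MEP, GMP and HSC GMP and HSC were the only neighbours called apart. Rb1 was at 24.0 and 23.8 CPM in Young HSCs and 105 and 114 in Young MEPs, and its order MEP, CLP, GMP, MPP2, MPP1, MPP3, MPP4 and HSC had called steps between MEP and CLP, CLP and GMP, and MPP4 and HSC. Rcbtb2 and Lpar6, which share exon bases with Rb1, were both lowest in MEPs, at 31.1 to 32.1 and 7.43 to 8.11 CPM in Young cells, where Rb1 was highest. Aktip, which shares bases with Rbl2, was at 45.2 to 45.7 CPM in Young HSCs and 9.12 to 11.1 in Young MEPs, so it was high where Rbl2 was high, and the part of shared reads was not tested. Over the 28 pairs of fractions Rbl1, Rbl2 and Rb1 differed in 18 each, E2f4 in 25, E2f2, E2f7 and E2f8 in 24 each, E2f6 in 18, E2f1 in 14 and E2f3 in 12, against 51.3% of all genes and pairs.

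Scaled to exon length, the make-up of the pocket transcripts turned over along the hierarchy. In Young HSCs Rbl2 held 65.5 and 66.6% of the reads per kilobase of the 3 genes and Rbl1 22.2 and 21.0%. In Young MPP2 Rbl2 held 37.2 and 36.0% and Rbl1 48.5 and 49.3%. Rb1 held 12.4 and 12.4% in Young HSCs and 38.9 and 38.2% in Young MEPs, where the shares of Rb1 and Rbl1 were close. The ratio of Rbl1 to Rbl2 per kilobase was 0.339 and 0.315 in the libraries of Young HSCs and 0.466 and 0.448 in Aged HSCs. In MPP1 it was 0.790 and 0.835 in Young and 1.34 and 1.19 in Aged libraries. MPP2 had 1.31 and 1.37 in Young and 1.96 and 1.91 in Aged, MPP3 had 1.07 and 1.06 in Young and 1.95 and 1.41 in Aged, and MPP4 had 1.04 and 1.20 in Young and 1.84 and 1.86 in Aged. The Aged libraries lay above the Young ones in each of these 5 fractions without overlap. In GMPs the Aged libraries lay below the Young ones, at 1.21 and 1.27 against 1.74 and 1.45, and the same held in MEPs and in CLPs. The ratio itself was not tested, and the fractions of an age may share pools of marrow.

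**Figure D2:**
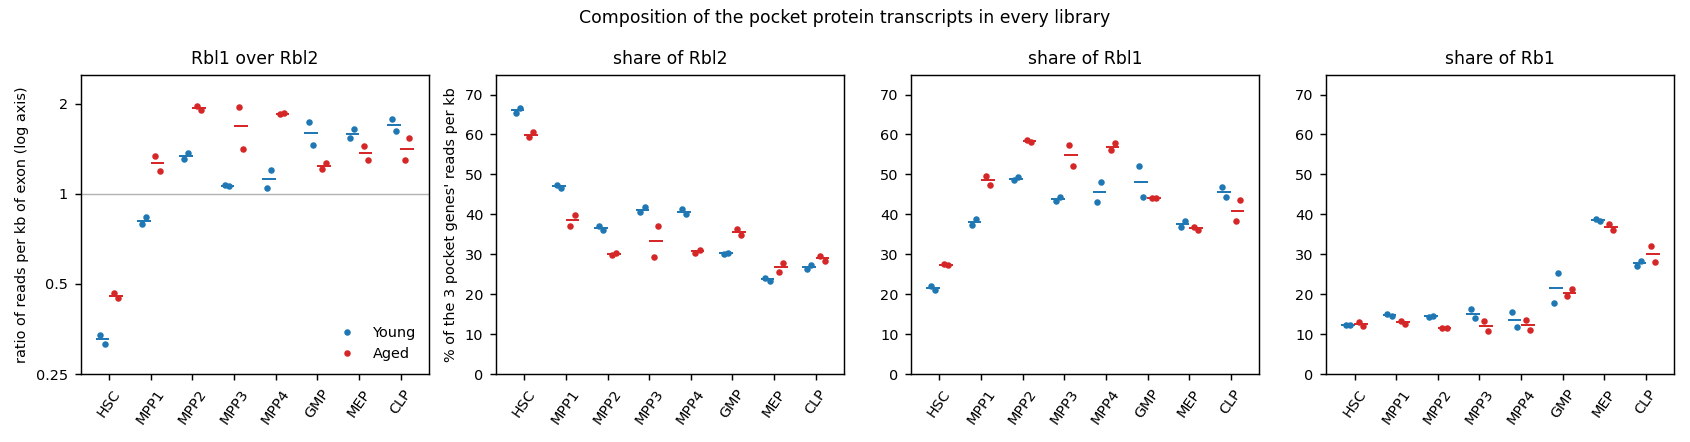
Ratio of Rbl1 to Rbl2 reads per kilobase of exon (left, log axis) and share in percent of each pocket gene in the reads per kilobase of Rbl2, Rbl1 and Rb1 (right) in every library, with bars for the mean of 2 libraries. In HSCs and MPP1 to MPP4 the red Aged points of the ratio lie above the blue Young points, and in GMPs, MEPs and CLPs they lie below.

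Among the E2F transcripts per kilobase E2f4 held 58.3 and 58.0% in Young HSCs, 43.5 and 43.2% in Young MPP2 and 65.1 and 65.8% in Young MEPs. The activators E2f1, E2f2 and E2f3 together held 18.4 and 19.5%, 31.1 and 32.4% and 17.5 and 18% in the same groups. E2f7 and E2f8 together went from 2.04 and 1.22% in Young HSCs to 12.3 and 11.7% in Young MPP2. Between the ages the shares also lay apart without overlap, in directions that varied by fraction. In MPP1 E2f4 held 47.8 and 47.4% in Young and 43.7 and 43.5% in Aged libraries, and the activators 28.2 and 28.3% in Young and 31.5 and 32% in Aged. HSCs and MPP3 ran the same way as MPP1, while in MPP2 and MPP4 E2f4 was higher and the activators lower in Aged libraries. In GMPs E2f4 held 43.0 and 45.7% in Young and 54.2 and 54.8% in Aged libraries, and the activators 34.8 and 33.7% in Young and 26.1 and 25.3% in Aged. In Young CLPs E2f4 held 42.2 and 42.6% and the activators 40.0 and 39.1%, and in Aged CLPs E2f4 held 56.8 and 52.3% and the activators 28.6 and 30.1%. In MEPs the activators held 17.5 and 18% in Young and 10.3 and 11.1% in Aged libraries. The libraries of the ages did not overlap in these shares, which were not tested. The ratio of E2f8 to E2f1 per kilobase was 0.313 and 0.291 in Young and 0.506 and 0.501 in Aged GMPs, and it was higher in both Aged libraries of every fraction but CLPs, where it was 0.576 and 0.654 in Young and 0.492 and 0.548 in Aged.

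**Figure D3:**
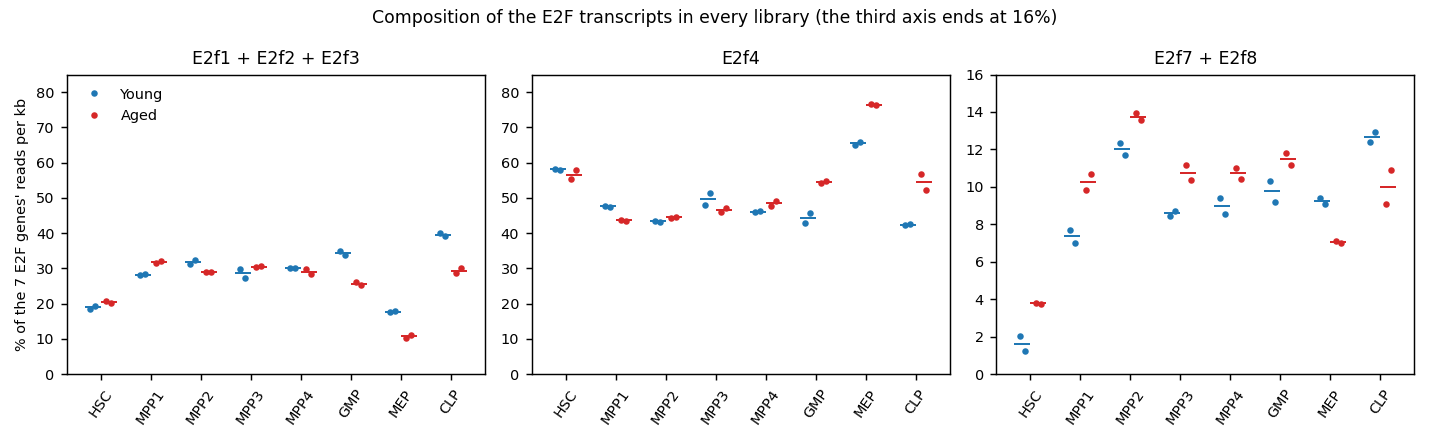
Share in percent of the reads per kilobase of exon of the 7 E2F genes that came from the activators (left), from E2f4 (middle) and from the atypical E2f7 and E2f8 (right, axis to 16%), with a point for each library and a bar for the mean of 2. In GMPs, MEPs and CLPs the Aged points lie lower on the left and higher in the middle.

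Steps between neighbouring fractions were tested over both ages. From HSCs to MPP1, 8 of the 10 genes rose and none fell at an adjusted p under 0.01, where 32.1% of all genes were called. E2f8 rose most (log2 fold change 2.71 ± 0.12 (SE), adjusted p 4.45e-14), followed by E2f2 (1.90 ± 0.12), E2f7 (1.86 ± 0.11), Rbl1 (1.22 ± 0.09) and E2f1 (1.22 ± 0.06). Rb1 rose by 0.55 ± 0.14, E2f4 by 0.22 ± 0.05 and E2f6 by 0.18 ± 0.05, with adjusted p of 0.00237, 0.000586 and 0.00879. With GC and length offsets the calls of Rb1 and E2f6 were lost and Rbl2 was called lower (-0.26, adjusted p 0.00346). E2f6 was also lost without any 1 of 5 of the 8 libraries and Rb1 without any 1 of 3 (adjusted p 0.0159 to 0.0515 and 0.0109 to 0.0173), and E2f3 was gained without Aged HSC replicate 1 (0.61, adjusted p 0.00846). From MPP1 to MPP2, 6 rose and none fell (15.5% of all genes called), again led by E2f8 (0.95 ± 0.09 (SE), adjusted p 1.77e-07), with E2f2, E2f7, Rbl1, E2f1 and E2f4. E2f1 was lost there without any 1 of 6 of the 8 libraries (log2 0.22 to 0.25, adjusted p 0.0131 to 0.0348). E2f1 showed no such rise in Aged cells, at 95.7 and 100.4 CPM in MPP1 and 92.9 and 96.6 in MPP2. From MPP2 to MPP3 the direction turned for E2f7 (-0.60 ± 0.09 (SE), adjusted p 0.000172) and E2f8 (-0.58 ± 0.09 (SE), adjusted p 0.000252), the 2 genes called there (4.67% of all genes). From MPP3 to MPP4 E2f2 was the one gene called (0.44 ± 0.10 (SE), adjusted p 0.00472, with 9.69% of all genes), and it was lost without any 1 of 6 of the 8 libraries (log2 0.37 to 0.44, adjusted p 0.0155 to 0.0396).

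The steps to the restricted progenitors moved large parts of the transcriptome, and shares of called members near those of all genes are no result about the members. From MPP2 to MEPs 9 of 10 were called, with 70.7% of all genes. E2f4 (1.98 ± 0.05), Rb1 (1.40 ± 0.13), E2f8 (1.00 ± 0.09), E2f2, E2f3 and E2f6 rose, while E2f7 (-1.94 ± 0.10), Rbl1 (-0.67 ± 0.08) and Rbl2 (-0.54 ± 0.08) fell. The median over all tested genes was -0.24 in that step. Without Young MEP replicate 1 E2f3 was not called there (0.31, adjusted p 0.0419), and without Young MEP replicate 2 E2f1 was (-0.22, adjusted p 0.00258). With offsets for GC content and length Rbl2 was not called in that step (-0.11, adjusted p 0.156) and E2f1 turned from -0.14 to 0.29 (adjusted p 8.54e-05). From MPP3 to GMPs 7 of 10 were called, with 61.5% of all genes: E2f8, E2f1 and E2f4 rose and Rbl2, Rbl1, E2f7 and E2f2 fell, with Rbl2 the lowest (-0.61 ± 0.08 (SE), adjusted p 5.69e-07). E2f7 was not called there with those offsets (-0.22, adjusted p 0.0523) and Rb1 was (0.38, adjusted p 0.00781). E2f4 was at 0.36 in that step and at 0.22 without Young MPP3 replicate 1 or Aged MPP3 replicate 1. From MPP4 to CLPs 9 of 10 were called, with 50.1% of all genes, and E2f2 rose most (1.83 ± 0.10 (SE), adjusted p 1.06e-12) and E2f6 fell most (-0.75 ± 0.06 (SE), adjusted p 1.3e-10). E2f3 was lost there without any 1 of 6 of the 8 libraries (log2 0.42 to 0.55, adjusted p 0.0115 to 0.0409). Averaged over both ages, Rbl1 and Rbl2 fell in each of the 3 steps, and E2f4 and E2f8 rose in each of them. The average does not describe each age in the step to CLPs. In Aged cells E2f8 was at 69.4 and 64.7 CPM in MPP4 and 64.9 and 77.9 in CLPs, which overlap. In Young cells Rbl1 was at 112 and 121 CPM in MPP4 and 110 and 106 in CLPs.

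Aged HSCs held more of the atypical repressors and of E2f2. E2f7 was at 5.99 and 4.69 CPM in Young and 11.3 and 13.6 in Aged HSCs (log2 fold change 1.23 ± 0.16 (SE), adjusted p 2.82e-05). E2f8 was at 4.94 and 2.41 CPM in Young and 9.30 and 8.91 in Aged libraries (1.34 ± 0.20 (SE), adjusted p 9.29e-05). E2f2 was at 4.29 and 4.30 CPM in Young and 7.27 and 9.31 in Aged libraries (0.95 ± 0.20 (SE), adjusted p 0.00287). The libraries of the ages did not overlap for these 3 genes, the only ones of the 10 called, where 5.40% of all genes were called. E2f1 was at 31.3 and 34.9 CPM in Young and 35.5 and 39.1 in Aged libraries (0.17 ± 0.09 (SE), adjusted p 0.284), and Rbl1 at 42.9 and 40.3 CPM in Young and 59.7 and 42.9 in Aged libraries (0.30 ± 0.12 (SE), adjusted p 0.133). Summed over 6 markers of cycling cells (Mki67, Top2a, Ccnb1, Cdc20, Plk1 and Bub1) the level was 98.2 to 115 CPM in Young and 177 to 208 in Aged HSCs, with 5 called higher. How far the share of cycling cells enters the values of the 10 genes was not tested. With no libraries but those 4 in the fit, none of the 3 genes was called, with adjusted p of 0.0305 for E2f7, 0.085 for E2f8 and 0.1 for E2f2. E2f8 ranged from 0.83 to 1.88 when 1 library was left out, lowest without Young replicate 2, and E2f2 lost its call without Young replicate 1, Young replicate 2 or Aged replicate 2 (log2 0.75 to 0.92, adjusted p 0.0286 to 0.0538).

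In MPP1 4 of 10 genes were called, all higher in Aged cells, against 6.80% of all genes. E2f8 went from 27.8 and 28.2 CPM in Young to 48.8 and 51.3 in Aged (log2 fold change 0.84 ± 0.14 (SE), adjusted p 0.00027), E2f7 from 25.5 and 19.6 to 36.7 and 40.8 (0.78 ± 0.13 (SE), adjusted p 0.000456) and E2f2 from 16.8 and 18.6 to 29.6 and 26.7 (0.67 ± 0.15 (SE), adjusted p 0.00487). E2f1, whose product drives entry into S phase, went from 67.9 and 69.2 to 95.7 and 100.4 CPM (0.52 ± 0.09 (SE), adjusted p 0.000368). The libraries of the ages did not overlap for any of them. Rbl1 also lay apart by age, at 95.1 and 90.0 CPM in Young and 127 and 124 in Aged libraries, without passing the threshold (0.44 ± 0.12 (SE), adjusted p 0.0151), which it passed with DESeq2. E2f4 was at 121 and 122 CPM in Young and 142 and 139 in Aged MPP1 (0.21, adjusted p 0.0423 in edgeR). It was called by DESeq2 (0.21, adjusted p 0.00714) and with GC and length offsets (0.23, adjusted p 0.00958). The cycling markers summed to 670.3 to 705 CPM in Young and 944 to 958 in Aged MPP1, with 4 of 6 called higher. E2f2 was lost when any 1 of the 4 libraries was left out (log2 0.59 to 0.77, adjusted p 0.0111 to 0.0805), and E2f7 without Young replicate 2 (log2 0.60, adjusted p 0.022).

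In MPP2 none of the 10 genes was called by edgeR or by DESeq2, against 7.81% of all genes in edgeR, and 3 had an unadjusted p under 0.05. The nearest to the threshold was Rbl1, at 134 and 134 CPM in Young and 167 and 169 in Aged libraries (log2 fold change 0.33 ± 0.12 (SE), adjusted p 0.0619). E2f8 was at 65.6 and 64.3 CPM in Young and 81.2 and 80.2 in Aged libraries (0.31 ± 0.13 (SE), adjusted p 0.114). Neither gene's libraries overlapped between the ages, and a fit of the 4 MPP2 libraries alone called both, with E2f7 higher and Rbl2 lower. In that fraction 4 of 6 cycling markers were higher in Aged cells, with sums of 1213 to 1265 CPM in Young and 1660.3 to 1698 in Aged libraries.

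In MPP3 2 of 10 genes were called, both higher, against 13.9% of all genes. E2f7 was at 22.2 and 24.2 CPM in Young and 34.5 and 37.2 in Aged MPP3 (log2 fold change 0.63 ± 0.14 (SE), adjusted p 0.00174), and E2f8 at 39.2 and 41.0 CPM in Young and 60.1 and 57.5 in Aged libraries (0.55 ± 0.13 (SE), adjusted p 0.00454), without overlap. E2f1, at 79.8 and 72.7 CPM in Young and 93.8 and 96.6 in Aged libraries, had an adjusted p of 0.0101. E2f8 was lost when any 1 of the 4 libraries was left out (log2 0.55 to 0.62, adjusted p 0.0151 to 0.0379), and E2f7 without Young replicate 1 or Aged replicate 2 (log2 0.60 to 0.61, adjusted p 0.0167 to 0.0229). E2f1 was gained without Young replicate 1 (log2 0.42, adjusted p 0.00926) and Rbl1 without Aged replicate 2 (log2 0.56, adjusted p 0.00983).

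In MPP4 4 of 10 genes were called, against 16.6% of all genes. Rbl2 fell from 135 and 126 CPM in Young to 95.0 and 98.1 in Aged MPP4 (log2 fold change -0.44 ± 0.11 (SE), adjusted p 0.00564). E2f4 rose from 136 and 132 to 172 and 184 CPM (0.41 ± 0.07 (SE), adjusted p 9.25e-05), E2f8 from 48.5 and 39.6 to 69.4 and 64.7 (0.61 ± 0.13 (SE), adjusted p 0.00171) and E2f7 from 22.6 and 24.0 to 30.9 and 36.5 (0.53 ± 0.14 (SE), adjusted p 0.00546). The libraries of the ages did not overlap for these 4 genes. Rbl2 was lost when any 1 of the 4 libraries was left out (log2 -0.49 to -0.39, adjusted p 0.0183 to 0.0674), E2f7 without Young replicate 1, Young replicate 2 or Aged replicate 2 (log2 0.41 to 0.58, adjusted p 0.0209 to 0.0983) and with DESeq2 size factors (adjusted p 0.0105), and E2f8 without Young replicate 2 or Aged replicate 1 (log2 0.47 to 0.56, adjusted p 0.0243 to 0.0427). With no libraries but the 4 of MPP4 fitted E2f4, E2f7 and E2f8 were not called (adjusted p 0.0114, 0.0191 and 0.0145). In MPP4 the macrophage markers summed to 39.7 to 45.2 CPM in Young and 8.82 to 9.94 in Aged libraries, with 4 of 5 called lower, and the basophil and mast cell markers to 19.2 to 23.4 and 5.64 to 6.08 CPM, with 2 of 4 called lower, and their part in the values was not tested. The cycling markers summed to 694 to 721 CPM in Young and 1111 to 1153 in Aged MPP3, with 5 of 6 called higher, and to 971 to 1073 and 1479 to 1548 CPM in MPP4, with 3 called higher.

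**Figure D4:**
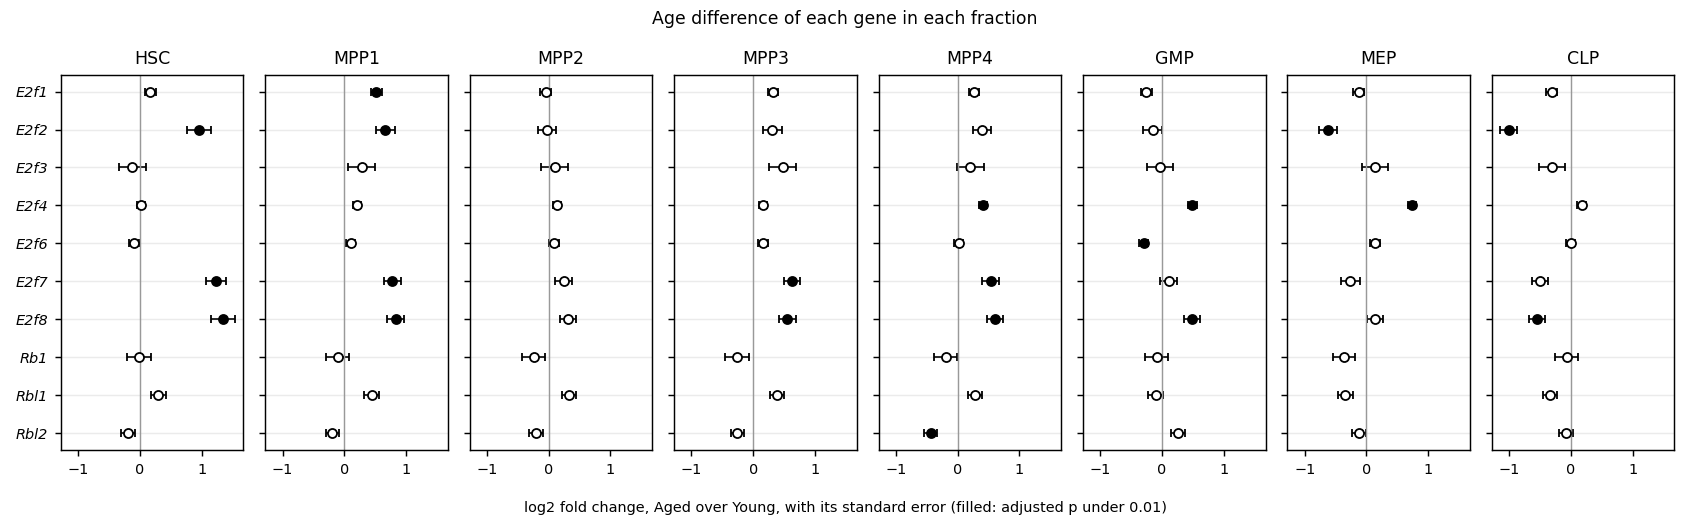
Log2 fold change of Aged over Young with its standard error (horizontal axis) for the 10 genes (rows) in the 8 fractions (panels), filled where the adjusted p was under 0.01. E2f7 and E2f8 lie to the right of 0 in HSCs and MPP1 to MPP4, and E2f2 lies to the left in MEPs and CLPs. E2f4 lies to the right and filled in MPP4, GMPs and MEPs, and to the right without a call in MPP1, MPP2, MPP3 and CLPs.

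As the mean over MPP1 to MPP4 the age difference passed for 7 of 10 genes, against 36.7% of all genes. E2f8 (0.58 ± 0.07), E2f7 (0.55 ± 0.07), Rbl1 (0.36 ± 0.06), E2f2 (0.34 ± 0.07), E2f1 (0.26 ± 0.04) and E2f4 (0.23 ± 0.03) were higher in Aged cells, with adjusted p from 3.6e-07 to 0.000723, and Rbl2 was lower (-0.27 ± 0.06, adjusted p 0.000342). E2f3 (0.26 ± 0.11 (SE), adjusted p 0.0466), E2f6 (0.09 ± 0.04 (SE), adjusted p 0.0539) and Rb1 (-0.20 ± 0.09 (SE), adjusted p 0.0818) did not pass. E2f3 was gained without Aged MPP3 replicate 1 (log2 0.36, adjusted p 0.00951). The difference in HSCs minus this mean passed for none of the 10 genes in edgeR (3.01% of all genes, 5 of the 10 with an unadjusted p under 0.05). The largest were those of E2f8 (0.77 ± 0.21 (SE), adjusted p 0.0267) and E2f7 (0.69 ± 0.18 (SE), adjusted p 0.0189), which DESeq2 called. E2f8 rested there on single libraries: without Young HSC replicate 1, with 4.94 CPM, it was called in edgeR too (log2 1.28, adjusted p 0.00101), and without Young HSC replicate 2, with 2.41 CPM, it was at 0.24 (adjusted p 0.624).

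In Aged GMPs E2f4 and E2f8 were higher and E2f6 was lower. E2f4 was at 157 and 164 CPM in Young and 227 and 225 in Aged GMPs (log2 fold change 0.49 ± 0.07 (SE), adjusted p 1.12e-05). E2f8 was at 72.7 and 60.9 CPM in Young and 96.8 and 89.8 in Aged libraries (0.48 ± 0.13 (SE), adjusted p 0.00776), and E2f6, the polycomb-bound repressor, was at 100.2 and 95.0 CPM in Young and 76.9 and 82.0 in Aged libraries (-0.30 ± 0.08 (SE), adjusted p 0.00578). These 3 of 10 genes were called against 18.9% of all genes, and their libraries did not overlap between the ages. E2f1 also lay apart, at 135 and 121 CPM in Young and 111 and 104 in Aged libraries (-0.26 ± 0.09 (SE), adjusted p 0.0294), and it was called with GC and length offsets (-0.47, adjusted p 0.000186) and by DESeq2 (adjusted p 0.00717). With those offsets E2f4 kept its call at 0.33. With no libraries but the 4 of GMPs fitted E2f6 and E2f8 were not called (adjusted p 0.0424 and 0.0238). E2f6 was lost without Young replicate 1, Aged replicate 1 or Aged replicate 2 (log2 -0.35 to -0.25, adjusted p 0.017 to 0.0875), and E2f8 without Young replicate 2 or either Aged library (log2 0.34 to 0.53, adjusted p 0.0242 to 0.125) and with GC and length offsets (0.36, adjusted p 0.0344). All 6 cycling markers were called higher in Aged GMPs, with sums of 784 to 787 CPM in Young and 1432 to 1471 in Aged libraries.

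In Aged MEPs E2f4 and E2f2 moved apart. E2f4, highest in this fraction at both ages, rose from 448 and 483 to 768 and 782 CPM (log2 fold change 0.73 ± 0.07 (SE), adjusted p 2.68e-08). E2f2 fell from 67.3 and 84.2 to 45.4 and 52.9 CPM (-0.62 ± 0.14 (SE), adjusted p 0.00188). These 2 of 10 genes were called against 20.8% of all genes, a share no higher than the background, and neither gene's libraries overlapped between the ages. E2f2 was lost without Young replicate 2 or Aged replicate 1 (log2 -0.54 to -0.50, adjusted p 0.0224 to 0.0265). Rb1 was at 105 and 114 CPM in Young and 81.2 and 89.0 in Aged libraries (-0.36 ± 0.18 (SE), adjusted p 0.128) and Rbl1 at 99.0 and 114 CPM in Young and 79.4 and 88.8 in Aged libraries (-0.34 ± 0.12 (SE), adjusted p 0.0325), each without overlap and without a call in edgeR, while DESeq2 called Rbl1 (-0.39, adjusted p 0.00482). E2f1 was called with GC and length offsets (-0.35, adjusted p 0.00263), and with no libraries but the 4 of MEPs fitted E2f2 was not (-0.64, adjusted p 0.0241). The cycling markers summed to 1871 to 1957 CPM in Young and 2119.7 to 2161 in Aged MEPs, with 2 called higher.

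In Aged CLPs 2 of 10 genes were called, both lower, against 10.4% of all genes. E2f2, at its highest in this fraction, was at 185 and 190.4 CPM in Young and 95.6 and 91.2 in Aged CLPs (log2 fold change -1.01 ± 0.14 (SE), adjusted p 2.47e-05), and the call held without each library in turn. E2f8 was at 101 and 108 CPM in Young and 64.9 and 77.9 in Aged libraries (-0.55 ± 0.13 (SE), adjusted p 0.00512), and it was lost without Young replicate 1, Young replicate 2 or Aged replicate 1 (log2 -0.61 to -0.42, adjusted p 0.0209 to 0.117) or with no libraries but the 4 of CLPs fitted (adjusted p 0.0324). E2f7, at 47.3 and 51.8 CPM in Young and 32 and 38.1 in Aged libraries, just missed (-0.50 ± 0.13 (SE), adjusted p 0.0108) and was gained without Aged replicate 2 (log2 -0.64, adjusted p 0.00791). E2f1 was at 101 and 95.5 CPM in Young and 76.4 and 82.4 in Aged libraries (-0.31 ± 0.09 (SE), adjusted p 0.0154). The libraries of the ages did not overlap for these 4 genes. The cycling markers summed to 2029.9 to 2064 CPM in Young and 1368 to 1682 in Aged CLPs, with 2 called lower, and the basophil, macrophage and B lineage markers were lower as well, the last at 2058 to 2124 and 959.7 to 963 CPM. Their part in the values of E2f2 and E2f8 was not tested.

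Whether the age differences of the restricted progenitors differed from the mean over MPP1 to MPP4 was tested as a contrast of its own. The 3 contrasts share the MPP libraries. In CLPs 5 of 10 genes were called, all lower, against 22.6% of all genes: E2f2 (-1.34 ± 0.16 (SE), adjusted p 1.15e-06), E2f8 (-1.12 ± 0.15 (SE), adjusted p 4.95e-06), E2f7 (-1.04 ± 0.15 (SE), adjusted p 1.34e-05), Rbl1 (-0.70 ± 0.13 (SE), adjusted p 0.000295) and E2f1 (-0.57 ± 0.10 (SE), adjusted p 0.0001). All 5 were called without each library in turn. In MEPs 5 were called against 24.8% of all genes, with E2f2 (-0.96 ± 0.16 (SE), adjusted p 7.71e-05), E2f7 (-0.81 ± 0.17 (SE), adjusted p 0.000702), Rbl1 (-0.70 ± 0.13 (SE), adjusted p 0.000281) and E2f1 (-0.39 ± 0.10 (SE), adjusted p 0.00336) lower and E2f4 higher (0.51 ± 0.07 (SE), adjusted p 1.56e-05). E2f1 was lost there without Young MEP replicate 2 or Aged MEP replicate 1 (log2 -0.38 to -0.33, adjusted p 0.0142 to 0.0159). In GMPs 5 were called against 26.6% of all genes, with E2f1 (-0.52 ± 0.10 (SE), adjusted p 0.000222), Rbl1 (-0.47 ± 0.13 (SE), adjusted p 0.00842) and E2f6 (-0.39 ± 0.09 (SE), adjusted p 0.00116) lower and Rbl2 (0.53 ± 0.13 (SE), adjusted p 0.00235) and E2f4 (0.27 ± 0.07 (SE), adjusted p 0.00732) higher. Of these E2f1 was called without each library in turn, E2f6 and Rbl2 were lost without Young GMP replicate 1 or Aged GMP replicate 1 (adjusted p 0.0176 to 0.019 and 0.0201 to 0.0455), and E2f4 and Rbl1 were lost without any 1 of 12 and 18 libraries (adjusted p 0.0101 to 0.04 and 0.0108 to 0.0783). E2f2 was gained without Young GMP replicate 1 (log2 -0.73, adjusted p 0.00168). With offsets for GC content and length E2f4 and Rbl2 were not called in GMPs (0.09 and 0.33, adjusted p 0.305 and 0.0212), while E2f2 and E2f7 were called lower there (-0.84 and -0.78, adjusted p 0.000365 and 0.000565) and E2f8 in MEPs (-0.59, adjusted p 0.00184).

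The DP partner Tfdp1 moved with age in both directions. It was at 377 to 387 CPM in Young and 541 to 564 in Aged MPP3 (log2 fold change 0.53 ± 0.06 (SE), adjusted p 2.34e-06) and was called higher in MPP1, MPP2 and MPP4 too, while in GMPs it was at 901 to 964 CPM in Young and 738 to 741 in Aged libraries (-0.33 ± 0.06 (SE), adjusted p 0.000242) and was called lower there, in MEPs and in CLPs. Tfdp2 was lower in Aged CLPs (-0.61 ± 0.10 (SE), adjusted p 0.000165) and MPP4. Of the 10 partners of E2F and of the DREAM complex counted whole (E2f5, Tfdp1, Tfdp2, Lin9, Lin37, Lin52, Lin54, Rbbp4, Mybl2 and Foxm1), 1 was called higher in Aged HSCs, 2 each in MPP1, MPP2 and GMPs and 3 each in MPP3 and MPP4, while 1 each was called lower in MPP4, GMPs and MEPs and 3 in CLPs. The share of all genes called was 5.40% for HSCs, 13.9% for MPP3, 20.8% for MEPs and 10.4% for CLPs, with MPP1 at 6.80%, MPP2 at 7.81%, MPP4 at 16.6% and GMPs at 18.9%, and 1 of 10 in HSCs or in MEPs is no result about the partners. Mybl2, which takes part in the switch of that complex to activation, was higher in Aged HSCs (0.95 ± 0.13 (SE), adjusted p 2.9e-05), in MPP1 to MPP4 and in GMPs, and lower in CLPs (-0.45 ± 0.10 (SE), adjusted p 0.00344). Foxm1 was higher in Aged GMPs (1.05 ± 0.14 (SE), adjusted p 1.39e-05), and E2f5 lay between 3.22 and 22.7 CPM in all libraries.

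Among 14 cyclins, kinases and inhibitors that act on pocket proteins, 4 were called higher and 1 lower in Aged HSCs. The 4 MPP fractions, taken in order, had 6, 2, 6 and 7 higher and 2, 2, 2 and 3 lower, while GMPs had 2 higher and 5 lower, MEPs 1 higher and 4 lower and CLPs 1 of either kind. These are 5 of 14 in HSCs against 5.40% of all genes, 10 of 14 in MPP4 against 16.6% and 2 of 14 in CLPs against 10.4%, the last near the background. Cdkn2c, an inhibitor of the kinases Cdk4 and Cdk6, was at 6.45 to 8.09 CPM in Young and 26.8 to 28 in Aged HSCs (log2 fold change 1.92 ± 0.12 (SE), adjusted p 6.59e-10) and was called higher in 7 fractions, all but CLPs. Cdk6 was higher in HSCs (0.69 ± 0.13 (SE), adjusted p 0.00086), MPP1 and MPP4. Ccnd2 was lower in HSCs (-0.65 ± 0.13 (SE), adjusted p 0.00148), MPP1, MPP2 and MPP3. Ccne1, a cyclin whose gene is a classic E2F target, was higher in HSCs, MPP1, MPP3 and MPP4, where it was at 10.1 to 10.3 CPM in Young and 22.3 to 26.3 in Aged libraries (1.25 ± 0.13 (SE), adjusted p 3.8e-07), and lower in GMPs (-0.58 ± 0.11 (SE), adjusted p 0.000477). Ccne2 was lower in Aged GMPs (-1.25 ± 0.11 (SE), adjusted p 5.6e-08) and MEPs (-0.80 ± 0.10 (SE), adjusted p 5e-06) and higher in MPP1, MPP3 and MPP4. Cdkn1a, the inhibitor p21, was higher in Aged HSCs (0.55 ± 0.13 (SE), adjusted p 0.00632) and lower in MPP1 to MPP4 and in MEPs, with 6.08 to 8.11 CPM in Young and 1.31 to 1.55 in Aged MEPs. Cdkn1b was lower in MPP4 (-0.94 ± 0.20 (SE), adjusted p 0.00159), and Cdkn1c was at 132 to 138 CPM in Young and 104 to 116 in Aged HSCs (-0.30 ± 0.24 (SE), adjusted p 0.513). In CLPs Ccnd1 was higher (1.43 ± 0.19 (SE), adjusted p 2.04e-05) and Ccnd3 lower (-0.54 ± 0.08 (SE), adjusted p 4.39e-05).

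The genes that E2F factors act on were counted as a list of 28 genes of DNA replication, nucleotide supply and the cell cycle, among them Ccna2, Cdk1, Cdc6, Cdt1, Mcm2 to Mcm7, Pcna, Rrm1, Rrm2, Tyms, Tk1, Pola1, Chek1, Ezh2 and Dnmt1. In Aged cells 16 were called higher in HSCs and, taking the MPP fractions in order, 26, 10, 27 and 24, and none lower in any of them. GMPs had 2 called higher and 11 lower, MEPs 9 lower and CLPs 17 lower, with none higher in the last 2 fractions. Of all genes 5.40% were called in HSCs and 6.80, 7.81, 13.9 and 16.6% in MPP1 to MPP4, in either direction. In GMPs, MEPs and CLPs it was 18.9, 20.8 and 10.4%. How far the share of cycling cells enters the values of this list was not tested. The median log2 fold change of the list was 0.48 in HSCs, then 0.62, 0.28, 0.60 and 0.53 from MPP1 to MPP4, and -0.18, -0.24 and -0.35 for GMPs, MEPs and CLPs. Over all genes tested the median lay between -0.04 and 0.02. Tk1, a thymidine kinase of S phase, was the highest called in HSCs (1.22, adjusted p 2.52e-06), and Chek1 the lowest called in GMPs (-0.91, adjusted p 7.17e-06) and in MEPs (-0.92, adjusted p 2.69e-06). In GMPs Dnmt1 was the highest called (0.62, adjusted p 1.33e-05). As a contrast of its own, the age difference in GMPs minus the mean over MPP1 to MPP4 was called lower for 23 of the 28, that in MEPs for 25 and that in CLPs for 27, with none called higher. In these contrasts 26.6, 24.8 and 22.6% of all genes were called, in either direction. In the same order of fractions, HSCs first and CLPs last, the median of the 10 E2F and pocket genes was 0.09, 0.36, 0.09, 0.32, 0.28, -0.06, -0.12 and -0.31.

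**Figure D5:**
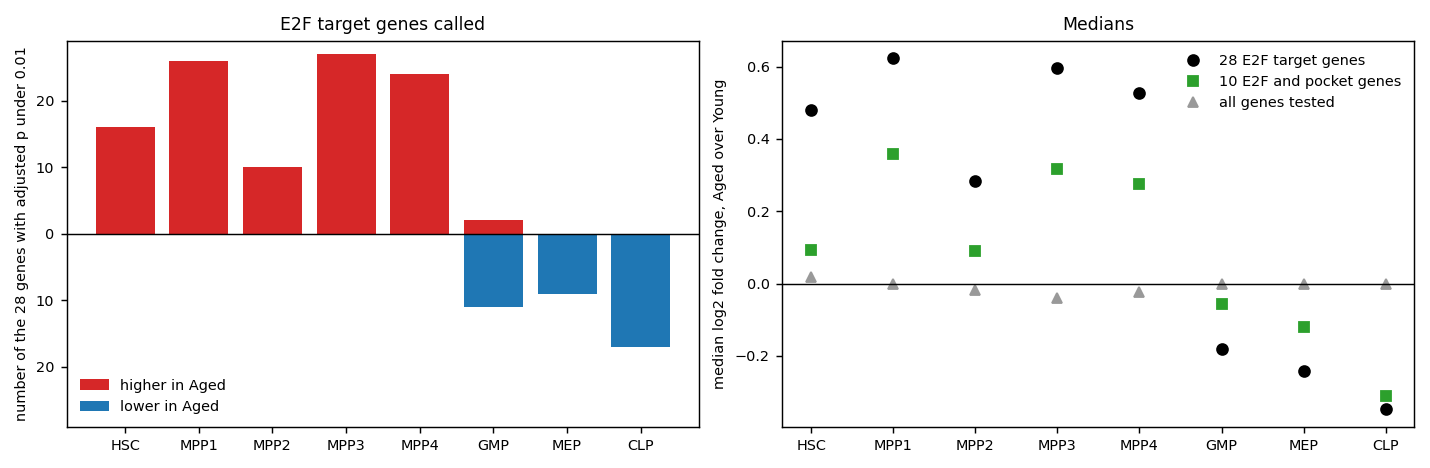
Left, number of the 28 E2F target genes called higher (red, upward) and lower (blue, downward) in Aged cells of each fraction at an adjusted p under 0.01. Right, median log2 fold change of Aged over Young for these 28 genes, the 10 E2F and pocket genes and all genes tested, with the first above 0 in HSCs and MPPs and below 0 in GMPs, MEPs and CLPs.

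Of 7 partners of E2f6 in polycomb complexes (Pcgf6, Mga, L3mbtl2, Max, Cbx3, Ring1 and Rnf2), 1 was lower in MPP3 and in MPP4, 3 were lower in GMPs, and 1 was higher and 2 lower in MEPs. Of all genes 13.9% were called in MPP3, 16.6% in MPP4, 18.9% in GMPs and 20.8% in MEPs, so that 1 of 7 in MPP3 or MPP4 is no result about the list. In GMPs, where E2f6 was lower, Pcgf6 had the lowest called value (-0.62, adjusted p 0.00298). In MEPs Ring1 was higher (0.59, adjusted p 0.000235) and Rnf2 lower (-0.69, adjusted p 4.85e-05).

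The genes with a pattern most like each member were found by Pearson correlation of log2 CPM over the 16 group means, as a description with no test. The nearest to E2f8 were Birc5 (0.993), Chtf18 (0.992) and Rad51ap1 (0.992), and to Rbl1 they were Pola1 (0.982), Cep192 (0.958) and Hist1h1b (0.955). For E2f1 the first were Hells (0.972) and Zdhhc21 (0.966), and for E2f7 they were Whsc1 (0.920), Lmnb1 (0.919) and 4930427A07Rik (0.915). For E2f4 they were Rnf8 (0.982), Cfdp1 (0.975) and Sppl2b (0.974), and for Rbl2 Foxa3 (0.978), Speg (0.978) and Klf12 (0.977). For E2f2 they were Gm17296, Strbp and Pbrm1, for E2f3 Chuk, Cpsf4 and Sart3, for E2f6 Dym, Klhl23 and Slc35g1, and for Rb1 Edrf1, Ap4e1 and Acss1, with coefficients between 0.921 and 0.965. Among the members E2f1 and E2f8 had the highest coefficient (0.882) and E2f3 and Rbl2 the lowest (-0.877). The 16 points share the marrow pools of their ages and the normalization.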

How the data were processed

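RNA of sorted cells was amplified with a SMARTer Ultra Low kit and sequenced on an Illumina instrument. The authors aligned reads to mm10 with TopHat2 2.0.13 and Bowtie2 2.1.0, took counts per gene with StringTie, and deposited raw counts, the unit used here. No molecular identifiers were used, so amplification copies count as reads. Use of strand was not given in the sources used here. A deposited normalized table and 8 tables of the authors' fold changes and p-values were not used.

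Counts were tested with edgeR 4.0.16 (R 4.3.3, limma 3.58.1) by a quasi-likelihood test with TMM scaling (factors 0.807 to 1.11), filterByExpr over the 16 groups, 1 mean per group over all 32 libraries and 16 residual degrees of freedom. Of 24421 genes 14154 were tested, the biological coefficient of variation was 0.113 and the prior degrees of freedom were 4.93. P-values were two-sided and adjusted by Benjamini-Hochberg over all genes tested within each contrast, and a call is an adjusted p under 0.01. Steps and pairs of fractions averaged both ages. CPM used the TMM-scaled totals, and values per kilobase used the union of exons in GENCODE M21 (GRCm38), to which 23350 symbols matched.

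The text names all 10 members, the genes of 4 pathway lists that a fixed rule picked, and lists of markers of cycling and other cells. Some genes of these lists are not reported here by name. The members and lists were chosen with earlier results of these data known. The test was tried on simulated counts first. Alternatives were DESeq2 1.42.0, its size factors, no filter, GC and length offsets, an adjusted p under 0.05, a replicate block, the libraries of a fraction alone and each of the 32 libraries left out. No library was found deposited in duplicate.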

Additional observations from a re-analysis of the deposited data

Results flagged for a closer look

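The results below were picked out because the age difference of a fraction differed from the mean of those in the 4 MPP fractions in a test of that difference (edgeR, adjusted p under 0.01). The values are differences of log2 fold changes. In GMPs they were -0.52 for E2f1, 0.27 for E2f4, -0.39 for E2f6, -0.47 for Rbl1 and 0.53 for Rbl2. In MEPs they were -0.39 for E2f1, -0.96 for E2f2, 0.51 for E2f4, -0.81 for E2f7 and -0.70 for Rbl1. In CLPs they were -0.57 for E2f1, -1.34 for E2f2, -1.04 for E2f7, -1.12 for E2f8 and -0.70 for Rbl1. E2f1 and Rbl1 were picked out in all 3 fractions, which share the MPP libraries.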

How the results depend on the processing

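Of 3120 values of the 10 genes under the alternatives, 2926 kept their direction and their side of the threshold, 128 lost the call, 65 gained one and 1 reversed: with GC and length offsets E2f1 from MPP2 to MEPs was 0.29, against -0.14. Of 312 counts of genes called, 262 stayed within 1.5 times. In fits of the 4 libraries of a fraction alone the counts were 0 in HSCs, 4 in MPP2 and 1 each in MPP4, GMPs, MEPs and CLPs. At an adjusted p under 0.05 they were 4 in MPP3, 4 in CLPs, 2 for HSCs minus the MPP mean and 5 from MPP2 to MPP3, GC and length offsets gave 4 in MPP3, and DESeq2 gave 4 in CLPs, 2 for HSCs minus the MPP mean and 5 from MPP2 to MPP3. Leaving out 1 library gave 2 to 3 calls in HSCs and MPP1, 0 in MPP2, 1 in MPP3, 1 to 2 in MPP4, GMPs and MEPs and 1 to 3 in CLPs. It gave 7 to 8 for the MPP mean, 0 to 1 for HSCs, 1 to 5 for GMPs, 4 to 5 for MEPs and 5 for CLPs minus that mean. For the steps it gave 6 to 9 from HSCs to MPP1, 5 to 6 from MPP1 to MPP2, 2 from MPP2 to MPP3, 0 to 1 from MPP3 to MPP4, 8 to 10 from MPP2 to MEPs, 7 from MPP3 to GMPs and 8 to 9 from MPP4 to CLPs. Where a library left out leaves 1 in its group, that one is assumed to vary like the other groups. The cause of these changes was not tested.

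In each fraction the difference between replicates in Young cells did not follow that in Aged cells (r -0.0557 to 0.0704 across genes). The numbers were therefore not taken as pairs between the ages. Steps, the MPP mean and pairs of fractions were fitted without pairing too. Whether fractions of the same age deviate together by replicate number, as with a shared pool, was not examined. With the replicate number as a block MPP4 lost E2f7 (adjusted p 0.0156) and Rbl2 (0.0102), and the counts were 3 in HSCs, MPP3 and CLPs, 5 in MPP1, 0 in MPP2 and 2 in MPP4, GMPs and MEPs, 7 for the MPP mean, and 0, 4, 6 and 5 for HSCs, GMPs, MEPs and CLPs minus that mean. For the 7 steps in the order above they were 7, 6, 3, 1, 9, 7 and 9.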
